A study of Mus musculus with 15 samples.

Results

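The classical target genes of the glucocorticoid receptor were followed on microarrays of RAW264.7 cells, a mouse macrophage-like tumour line, exposed to 4 compounds or to vehicle. The set holds 10 genes: Fkbp5, Tsc22d3, Per1, Klf9, Sgk1, Zbtb16, Errfi1, Cebpd, Mt1 and Mt2. They were found by their symbol in the array design, control spots aside, which gave 20 probes out of 56605 and 10 gene names out of 36870. Tests were run on probes that the scanner software marked as well above background in at least 2 of a group's 3 arrays, and 15 of the 20 probes passed, with at least 1 probe for each of the 10 genes. The 5 probes left out, 1 each of Fkbp5, Tsc22d3, Per1, Sgk1 and Zbtb16, were well above background on 0 of the 15 arrays. No tested probe of the set was saturated on any array.

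The 5 groups, of 3 arrays each, received dexamethasone (DEX, a synthetic glucocorticoid), fluticasone furoate (FF, a glucocorticoid of high receptor affinity used in inhaled medicines), VSG158, VSG159, or vehicle, which the labels give as ethanol and DMSO. The compounds were given at 100 nM 1 h ahead of stimulation, when lipopolysaccharide (LPS, from the outer membrane of bacteria, which activates macrophages) was added at 1 ug/ml for 16 h. The same treatment text is attached to the vehicle arrays, whose own labels name only the solvents, so LPS in those cultures rests on that text, and the solvent of each compound is not given. The design text speaks of duplicates while the labels list 3 arrays per group, and nothing says that these came from separate cultures, so all p-values measure the spread between arrays, which may be technical.

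The glucocorticoid receptor is a nuclear receptor that sits in the cytoplasm with chaperones until a steroid binds it, then enters the nucleus and acts on DNA. At many genes it binds as a dimer to a palindromic element and raises transcription, and in macrophages it also lowers transcription of inflammatory genes driven by NF-kB and AP-1. The genes of this set include feedback regulators of the receptor (Fkbp5), anti-inflammatory mediators (Tsc22d3), regulators of transcription (Per1, Klf9, Zbtb16, Cebpd), signalling regulators (Sgk1, Errfi1) and metal-binding proteins (Mt1, Mt2).

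All 9 macrophage markers examined, Csf1r, Adgre1, Cd68, Lyz2, Itgam, Cd14, Fcgr1, Ptprc and Spi1, were well above background on all 15 arrays, and none of the 5 epithelial markers was. The summed scaled signal of the macrophage markers spanned 815 to 969 on DEX arrays, 831 to 893 after FF, 799 to 888 after VSG158, 892 to 964 after VSG159 and 839 to 952 after vehicle. None of the 5 B cell markers was above background on all arrays, and their summed signal lay between 0.102 and 0.129 after DEX, 0.121 and 0.166 after FF, 0.122 and 0.173 after VSG158, and 0.115 and 0.185 after VSG159, against 0.229 to 0.320 after vehicle. Of 5 markers each, 2 T cell (Cd3e, Lck), 1 fibroblast (Dcn) and 1 neutrophil or mast cell marker (Elane) were above background on all 15 arrays. The summed T cell signal was 6.29 to 8.44 on DEX arrays, all above the 4.62 to 5.39 of vehicle, while FF (4.95 to 5.65), VSG158 (4.88 to 7.88) and VSG159 (4.07 to 7.002) overlapped vehicle. The summed fibroblast signal was 0.388 to 0.599 after FF, 0.340 to 0.570 after VSG158 and 0.423 to 0.451 after VSG159, all above the 0.241 to 0.299 of vehicle, and 0.275 to 0.380 after DEX, which overlapped it. The neutrophil or mast cell sum overlapped vehicle (32.2 to 66.4) in every compound group, from 27.4 after VSG159 to 112 after DEX, and so did the epithelial sum, at most 0.214 on any array. The part of any of these lists in the results was not tested. Between 39.6% and 50.4% of probes were well above background on each array, and the number of arrays limits the precision of every value. The arrays lay on 2 slides: vehicle, VSG158 and VSG159 replicates 1 and 2 on slide 1, and VSG159 replicate 3, FF and DEX on slide 2. No slide carried vehicle together with DEX or FF, and only VSG159 links the slides. VSG158 replicate 3 and VSG159 replicates 1 and 2, neighbours on slide 1, stood apart, with 966, 594 and 600 spots that the scanner software marked as nonuniform, against 28 to 230 on the other 12 arrays, and with 75th percentiles of 1223, 1170 and 1220, against 695 to 940 on the others. They also gave the 3 lowest values of the brightest Errfi1 probe and of Cebpd, so results were recomputed without these 3 arrays, an alternative chosen after seeing the data. VSG159 then has 1 array, on slide 2, assumed to vary like the other groups. All vehicle arrays were on slide 1, so that VSG159 change against vehicle cannot be told apart from slide. With slide as a fixed block on all arrays, the slide term rests only on VSG159 replicate 3 against VSG159 replicates 1 and 2. Changes after DEX and FF under that block therefore carry whatever set VSG159 replicates 1 and 2 apart. In RNA from whole cultures, fewer responding cells and less RNA per cell cannot be told apart.

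The 5′ ends of the genes were read for the elements that the receptor and the metal-responsive factor MTF1 are known to bind. RefSeq windows (GRCm38.p6) of 250 bases before to 50 bases after each annotated start were at hand for 8 genes, in 17 windows, with none for Cebpd and Zbtb16. The searched element of the receptor was a palindrome, AGAACA, any 3 bases and TGTTCT, with at most 2 mismatches in its 12 fixed letters. A single arm, AGAACA, was searched too, which overlaps the palindrome, and the metal-response cores were TGCACNC and TGCGCNC, all on both strands. The palindrome stood in 1.84% of all 32851 windows and in 2 of the 17, both of them Sgk1 starts, and with no mismatch in 0.00913% of all windows and in 1 Sgk1 window. The stretches below hold these Sgk1 matches, 1 of the 2 TGCACNC matches of Mt1, the one before its start, and the core matches of Mt2 before its start. All are written from the plus strand, with the matches in capitals.
Sgk1 at chr10:21993681-21993735, no mismatch: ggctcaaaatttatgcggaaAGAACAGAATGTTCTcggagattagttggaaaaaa
Sgk1 at chr10:21985901-21985955, 2 mismatches: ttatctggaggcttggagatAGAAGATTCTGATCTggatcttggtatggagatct
Mt1 at chr8:94179046-94179088: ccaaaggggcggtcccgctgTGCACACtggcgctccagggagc
Mt2 at chr8:94172375-94172594: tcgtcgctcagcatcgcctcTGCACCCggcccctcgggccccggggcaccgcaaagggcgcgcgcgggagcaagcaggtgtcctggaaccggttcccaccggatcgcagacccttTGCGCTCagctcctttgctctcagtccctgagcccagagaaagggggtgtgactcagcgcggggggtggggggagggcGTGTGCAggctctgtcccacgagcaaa
The Mt2 stretch holds 3 core matches, the last of them on the minus strand, and leaves out a further TGCGCNC match past the start. The single arm stood in 19% of all windows and in 4 of the 17, of Tsc22d3 and Sgk1. TGCACNC stood in 12.6% of all windows and in 2 of the 17, of Mt1 and Mt2, and TGCGCNC in 15.4% of all windows and in 4 of the 17, of Per1, Sgk1, Mt1 and Mt2. These are matches of letters in a window of fixed size and no measure of binding. Elements outside the windows were not searched, so a window without a match does not bear on whether a gene is a direct target.

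The first question of the design is what each compound did relative to vehicle. Values are log2 signals, as processed by the scanner software, less the 75th percentile of their array, so 0 is the 75th percentile of an array, and a level is compared only within its own probe. A change counts as called where limma's test, adjusted by Benjamini-Hochberg over all 28497 tested probes, gave p under 0.05. By the brightest probe of each gene, Fkbp5, Tsc22d3 and Klf9 were higher and Errfi1 was lower with all 4 compounds, and Sgk1 was higher after FF, VSG158 and VSG159. Per1, Zbtb16, Cebpd, Mt2 and the brightest Mt1 probe passed the test with none of the compounds. Counted over probes, 7 of 15 were called after DEX, 6 higher and 1 lower, where 47.1% of all tested probes were called, 21.5% higher and 25.6% lower. After FF 9 of 15 were called, 8 higher and 1 lower, where 43.1% of all were, 20.4% higher and 22.7% lower. After VSG158 8 of 15 were called, 7 higher and 1 lower, where 45.6% of all were, 18.9% higher and 26.7% lower. After VSG159 7 of 15 were called, 6 higher and 1 lower, where 44.9% of all were, 18.4% higher and 26.5% lower. The count of calls was near that of the whole array after DEX, VSG158 and VSG159, which makes that count no result about these genes. Most of the probe calls were upward, but genes with several called probes count several times. By gene, 3 of 10 were higher and 1 lower after DEX, and 4 higher and 1 lower after each other compound. Over all genes 23.2% were higher and 23.1% lower after DEX, and 20.8% and 21.4% after FF. After VSG158 these shares were 19.7% and 24.6%, and after VSG159 19.1% and 25%. The median change over the 10 genes was 0.09 after DEX, -0.0016 after FF, 0.04 after VSG158 and 0.09 after VSG159, where the median over all tested genes was 0.03, -0.05, -0.06 and -0.06 in the same order. All 4 comparisons use the same 3 vehicle arrays. Without the 3 arrays that stood apart, 8 of the 15 probes were called after DEX, 9 after FF, 9 after VSG158 and 7 after VSG159, where 53.1%, 47.8%, 45.7% and 33.8% of all tested probes were.

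**Figure D1:**
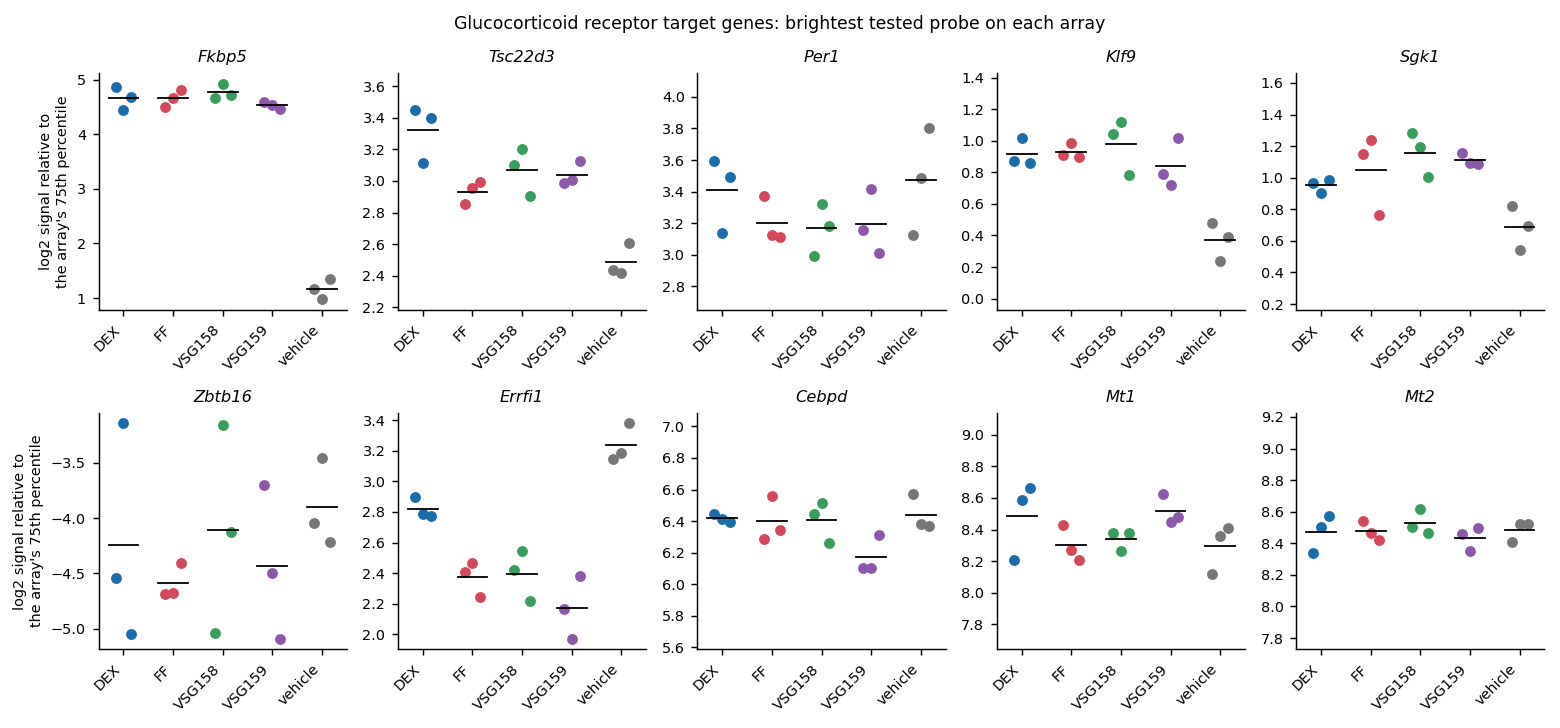
Scaled log2 signal of each gene's brightest probe on every array, 1 panel per gene with its own vertical range. Points are arrays, grouped as DEX, FF, VSG158, VSG159 and vehicle, and bars are group means. The 12 compound arrays stand above the 3 vehicle arrays for Fkbp5, Tsc22d3 and Klf9 and below them for Errfi1, while the 5 groups overlap for Per1 and Mt2.

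Fkbp5, a co-chaperone of Hsp90 that lowers the affinity of the glucocorticoid receptor for its ligand, changed most among the 10 genes. Its brightest probe (A_55_P1952379, mm9 chr17:28536060-28536119, minus strand) read 4.87, 4.44 and 4.68 after DEX, 4.50, 4.68 and 4.82 after FF, 4.66, 4.92 and 4.72 after VSG158, and 4.59, 4.54 and 4.46 after VSG159, against 1.17, 0.98 and 1.35 after vehicle. Every compound array stood far above every vehicle array, and the 4 compound groups lay side by side. The change was 3.50 after DEX, 3.50 after FF, 3.60 after VSG158 and 3.37 after VSG159 (SE 0.14 each), that is 11.3-fold, 11.3-fold, 12.2-fold and 10.3-fold, with limma adjusted p of 1.15e-08, 4.72e-09, 4.46e-09 and 6.11e-09. Among the 28497 tested probes these changes ranked 39, 59, 47 and 70 from the top. The order of the group means was VSG158, FF, DEX, VSG159 and vehicle, and of the neighbours in it only VSG159 and vehicle differed by the test.

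A second Fkbp5 probe (mm9 chr17:28574995-28575054) read between -1.15 and -0.78 after DEX, -0.67 and -0.32 after FF, -0.74 and -0.60 after VSG158, and -0.74 and -0.36 after VSG159, against -4.07 to -2.96 after vehicle. Here too all 12 compound arrays exceeded the vehicle arrays, by 2.69 after DEX, 3.09 after FF, 2.97 after VSG158 and 3.09 after VSG159 (SE 0.24 each). The call of the brightest Fkbp5 probe was kept in 125 of 126 combinations of compound and alternative, and was lost only for DEX when slide and array position entered the fit together. With slide as a fixed block the Fkbp5 change was 3.60 ± 0.25 (SE) after DEX and 3.60 ± 0.25 after FF.

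Tsc22d3 encodes GILZ, a leucine zipper protein that binds and restrains NF-kB and AP-1. Its brightest probe (A_55_P1989061, mm9 chrX:137074094-137074153, minus strand) read 3.45, 3.11 and 3.40 after DEX, 2.85, 2.95 and 2.99 after FF, 3.099, 3.20 and 2.91 after VSG158, and 2.99, 3.01 and 3.12 after VSG159, against 2.44, 2.42 and 2.61 after vehicle. No compound array fell to the level of vehicle, and 2 DEX arrays were the highest of the 15. The change was 0.83 after DEX, 0.45 after FF, 0.58 after VSG158 and 0.55 after VSG159 (SE 0.11 each), from 1.36-fold after FF to 1.78-fold after DEX, with limma adjusted p of 9.05e-05, 0.00664, 0.00113 and 0.00165. With slide as a fixed block the FF change of Tsc22d3 was 0.32 ± 0.20 (SE) and was no longer called, while that after DEX was 0.70 ± 0.20 and was. With each array scaled to its median, FF (0.50) and VSG158 (0.56) were not called, with adjusted p of 0.140 and 0.0905.

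A second Tsc22d3 probe (mm9 chrX:137074801-137074860) moved less. It read 2.96, 3.03 and 2.97 after DEX, 2.96, 3.17 and 3.07 after FF, 3.12, 3.20 and 2.73 after VSG158, and 2.71, 2.81 and 2.97 after VSG159, against 2.80, 2.72 and 2.72 after vehicle. The DEX and FF arrays lay just above vehicle, and the VSG158 and VSG159 arrays overlapped it. FF gave the single call of this probe, at 0.32 ± 0.12 (SE) with an adjusted p of 0.0496, and the other compounds had 0.24 (DEX), 0.27 (VSG158) and 0.08 (VSG159). This FF call was lost in 19 of 30 alternatives, with slide as a fixed block at 0.12 (adjusted p = 0.699) and with slide as a random block at 0.23 (adjusted p = 0.305) among them. DEX and VSG158 gained a call of the probe in 4 alternatives each, among them the fit without the 3 arrays that stood apart (0.24 with adjusted p = 0.0279 after DEX and 0.42 with adjusted p = 0.00398 after VSG158).

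Klf9 is a zinc-finger transcription factor that represses target genes and is induced by steroid and thyroid hormones in many tissues. Its brightest probe (A_65_P19780, mm9 chr19:23240410-23240469) read 0.87, 1.02 and 0.86 after DEX, 0.91, 0.99 and 0.90 after FF, 1.04, 1.12 and 0.78 after VSG158, and 0.79, 0.72 and 1.02 after VSG159, against 0.48, 0.24 and 0.39 after vehicle. The lowest compound array, of VSG159, stood above the highest vehicle array. The change was 0.55 after DEX, 0.56 after FF, 0.61 after VSG158 and 0.47 after VSG159 (SE 0.11 each), 1.46-fold, 1.48-fold, 1.53-fold and 1.39-fold, and the adjusted p was 0.00200, 0.00161, 0.000887 and 0.00493. With slide as a fixed block the Klf9 change was 0.28 after DEX and 0.30 after FF (SE 0.19 each) and was not called, and on slide 1 alone it was 0.61 after VSG158 (adjusted p = 0.00894) and 0.38 after VSG159 (adjusted p = 0.0684). A second Klf9 probe (mm9 chr19:23242324-23242383) changed by 0.71 after DEX, 0.58 after FF and 0.56 after VSG158, all called, and by 0.39 after VSG159, which was not. This second Klf9 probe changed by 0.04 after DEX (adjusted p = 0.919) and -0.10 after FF (adjusted p = 0.810) with slide as a fixed block, and with a random block neither was called. On this Klf9 probe VSG159 replicate 3, the array on slide 2, read 1.00 and the replicates on slide 1 read 0.41 and 0.23. Without the 3 arrays that stood apart the VSG159 change of this Klf9 probe was 0.84, from replicate 3 alone. All vehicle arrays were on the other slide.

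**Figure D2:**
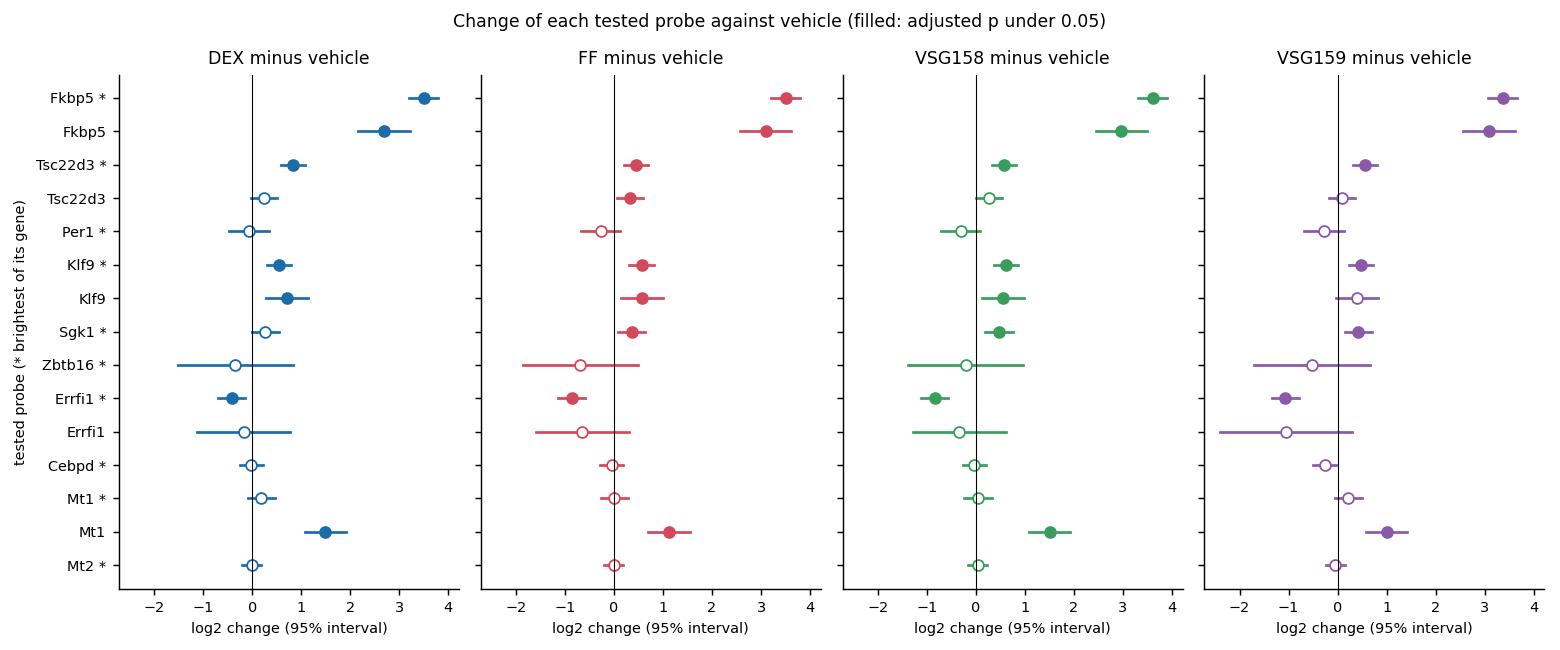
Log2 change against vehicle of each tested probe of the 10 genes, by compound, with 95% intervals from limma. Fkbp5 stands at 2.69 to 3.60 on both of its probes, Errfi1 below 0 on its brighter probe, and Mt1 at 1.00 to 1.51 on 1 probe and near 0 on the other.

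Sgk1, a kinase that acts on ion channels and transporters, was higher after FF, VSG158 and VSG159. Its tested probe (A_51_P118237, mm9 chr10:21719390-21719449) read 0.96, 0.90 and 0.99 after DEX, 1.15, 1.24 and 0.76 after FF, 1.28, 1.19 and 1.00 after VSG158, and 1.15, 1.09 and 1.09 after VSG159, against 0.82, 0.54 and 0.69 after vehicle. Of the 12 compound arrays 1, an FF array, lay within the vehicle range. The change was 0.37 after FF, 0.47 after VSG158 and 0.43 after VSG159 (SE 0.13 each), with adjusted p of 0.0345, 0.00890 and 0.0161. After DEX the Sgk1 change was 0.27 and did not pass (adjusted p = 0.106), although its 3 arrays lay above those of vehicle. The calls of Sgk1 were kept in 73 of 95 combinations of compound and alternative. The FF change was 0.40 with slide as a fixed block and was not called, and without the 3 arrays that stood apart the VSG159 change was 0.40 and was not called (adjusted p = 0.132).

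Errfi1, a feedback inhibitor of the epidermal growth factor receptor that glucocorticoids raise in several cell types, was lower with every compound. Its brightest probe (A_55_P2016105, mm9 chr4:150242886-150242945) read 2.90, 2.79 and 2.77 after DEX, 2.41, 2.47 and 2.25 after FF, 2.42, 2.54 and 2.22 after VSG158, and 2.16, 1.97 and 2.38 after VSG159, against 3.15, 3.18 and 3.38 after vehicle. All 12 compound arrays were below all 3 vehicle arrays, and the DEX arrays lay between vehicle and the rest. The change was -0.42 after DEX, -0.86 after FF, -0.84 after VSG158 and -1.07 after VSG159 (SE 0.12 each), and the adjusted p was 0.0155, 0.000121, 0.000149 and 2.22e-05. With slide as a fixed block the Errfi1 change stayed called, at -0.73 after DEX and -1.17 after FF (SE 0.20 each), and with median scaling that of DEX was not called (-0.42, adjusted p = 0.175). Without the 3 arrays that stood apart the Errfi1 calls after DEX, FF and VSG158 held, at -0.42, -0.86 and -0.75. The lone VSG159 array, on the other slide than vehicle, gave -0.86. A second, dimmer Errfi1 probe (mm9 chr4:150229849-150229908) passed the test with no compound. It had no value on VSG159 replicates 1 and 2, so its VSG159 change rests on 1 array.

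Mt1 and Mt2 encode metallothioneins, small proteins that bind zinc and copper and are induced by metals and by glucocorticoids. Mt2 (A_51_P246317, mm9 chr8:96697371-96697430) read 8.34, 8.50 and 8.58 after DEX, 8.54, 8.47 and 8.42 after FF, 8.50, 8.61 and 8.46 after VSG158, and 8.46, 8.35 and 8.50 after VSG159, against 8.41, 8.52 and 8.52 after vehicle. The 5 groups overlapped, and the changes of Mt2 in the order DEX, FF, VSG158 and VSG159 were -0.01, -0.01, 0.04 and -0.05 (SE 0.09 each), with 95% intervals within -0.24 to 0.23. Mt2 was called higher after FF in 1 of 31 alternatives (limma adjusted p = 0.0293). After VSG158 it was called higher in 1 of 32 (limma adjusted p = 0.0115). The brightest Mt1 probe (A_66_P111660, mm9 chr8:96704165-96704224) also passed with no compound, at 0.19 after DEX, 0.01 after FF, 0.04 after VSG158 and 0.22 after VSG159 (SE 0.13 each). This probe gained a call after DEX in 1 of 31 alternatives and after VSG159 in 2 of 32. Its group means ran from 8.30 after vehicle to 8.52 after VSG159. The second Mt1 probe behaved differently. The array design lists another transcript record for it than for the first, and whether both read the same Mt1 RNA was not tested. It lies upstream of the first in the direction of transcription (A_52_P423810, mm9 chr8:96703844-96703903) and read 1.86, 1.75 and 1.73 after DEX, 1.26, 1.37 and 1.59 after FF, 1.95, 1.52 and 1.92 after VSG158, and 1.20, 0.91 and 1.74 after VSG159, against 0.09, 0.39 and 0.38 after vehicle. Every compound array of this Mt1 probe was above every vehicle array. The change was 1.49 after DEX, 1.12 after FF, 1.51 after VSG158 and 1.00 after VSG159 (SE 0.19 each), or 2.82-fold after DEX, 2.17-fold after FF and 2.85-fold after VSG158, with adjusted p of 6.35e-05, 0.000495, 5.01e-05 and 0.00112. With slide as a fixed block the change was 0.43 after FF, which was not called (adjusted p = 0.214), and 0.81 after DEX, which was (adjusted p = 0.0295).

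Because the probes of 1 gene gave different changes, the difference between the brightest and the other probe was tested on the same arrays, a comparison chosen after the values had been seen. For Mt1 the brightest probe changed by less than the other, by -1.31 after DEX, -1.11 after FF, -1.46 after VSG158 and -0.78 after VSG159 (limma adjusted p of 0.00121, 0.00490, 0.000783 and 0.0308). Such a difference was called in 34% of all 8999 probe pairs after DEX, 14.7% after FF, 18.7% after VSG158 and 17.6% after VSG159. For Tsc22d3 the brightest probe changed by more, by 0.59 after DEX (adjusted p = 0.00410) and 0.47 after VSG159 (adjusted p = 0.0227), and the differences after FF (0.12) and VSG158 (0.31) did not pass. For Fkbp5 the difference was 0.81 after DEX (adjusted p = 0.0269) and did not pass with the other compounds, and with slide and array position in the fit it was -0.99. The Klf9 and Errfi1 pairs passed with no compound.

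Cebpd, Per1 and Zbtb16, 3 of the regulators of transcription in the set, passed the test with no compound. Cebpd, a leucine zipper factor that LPS also induces in macrophages (A_51_P444447, mm9 chr16:15888459-15888518), read 6.45, 6.42 and 6.39 after DEX, 6.29, 6.56 and 6.35 after FF, 6.45, 6.52 and 6.26 after VSG158, and 6.10, 6.11 and 6.31 after VSG159, against 6.57, 6.38 and 6.37 after vehicle. Only the VSG159 arrays lay entirely below vehicle, with a change of -0.27 (95% interval -0.50 to -0.03, adjusted p = 0.0602), while the changes after DEX, FF and VSG158 were -0.02, -0.04 and -0.03. The Cebpd change after VSG159 was called in 5 of 32 alternatives, with slide as a fixed block at -0.34 (adjusted p = 0.0265) and as a random block at -0.30 (adjusted p = 0.0370) among them. Without the 3 arrays that stood apart it was -0.13 (adjusted p = 0.524).

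Per1, a repressor of the circadian clock (A_55_P1970033, mm9 chr11:68923364-68923423), read 3.59, 3.14 and 3.50 after DEX, 3.37, 3.12 and 3.11 after FF, 2.99, 3.32 and 3.18 after VSG158, and 3.16, 3.41 and 3.01 after VSG159, against 3.13, 3.48 and 3.81 after vehicle. The vehicle arrays of Per1 spanned the values of most compound arrays. The changes were -0.06 after DEX, -0.27 after FF, -0.31 after VSG158 and -0.28 after VSG159 (SE 0.18 each), and the widest 95% interval reached -0.71.

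Zbtb16, a zinc-finger repressor also called PLZF (A_55_P2024155, mm9 chr9:48462419-48462478), was close to the limit of detection, being well above background on 1 DEX, 1 FF, 1 VSG158, 2 VSG159 and 2 vehicle arrays. Its levels ran between -5.09 and -3.14 over all compound arrays and between -4.21 and -3.45 after vehicle. Zbtb16 passed with no compound, at -0.34 after DEX, -0.69 after FF, -0.21 after VSG158 and -0.53 after VSG159 (SE 0.54 each), with 95% intervals between -1.86 and 0.97. The 3 FF arrays lay below those of vehicle, and FF was called in 1 of 30 alternatives, the fit of those groups alone (adjusted p = 0.0441).

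Over the 4 compounds together, 5 of the 15 probes were higher in every comparison and 1 was lower in every comparison, against 14.7% and 17% of all tested probes. All 12 compound arrays were above all vehicle arrays for 5 probes and below them for 1, against 16.2% and 20.6% of all tested probes. Counted by gene, the brightest probe did not overlap vehicle for 5 genes after DEX, 5 after FF, 5 after VSG158 and 7 after VSG159, against 59.8%, 57.7%, 52.8% and 51.6% of all tested probes. A test of any difference among the 5 groups (limma F test) called 7 of the 15 probes, against 46.3% of all.

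**Figure D3:**
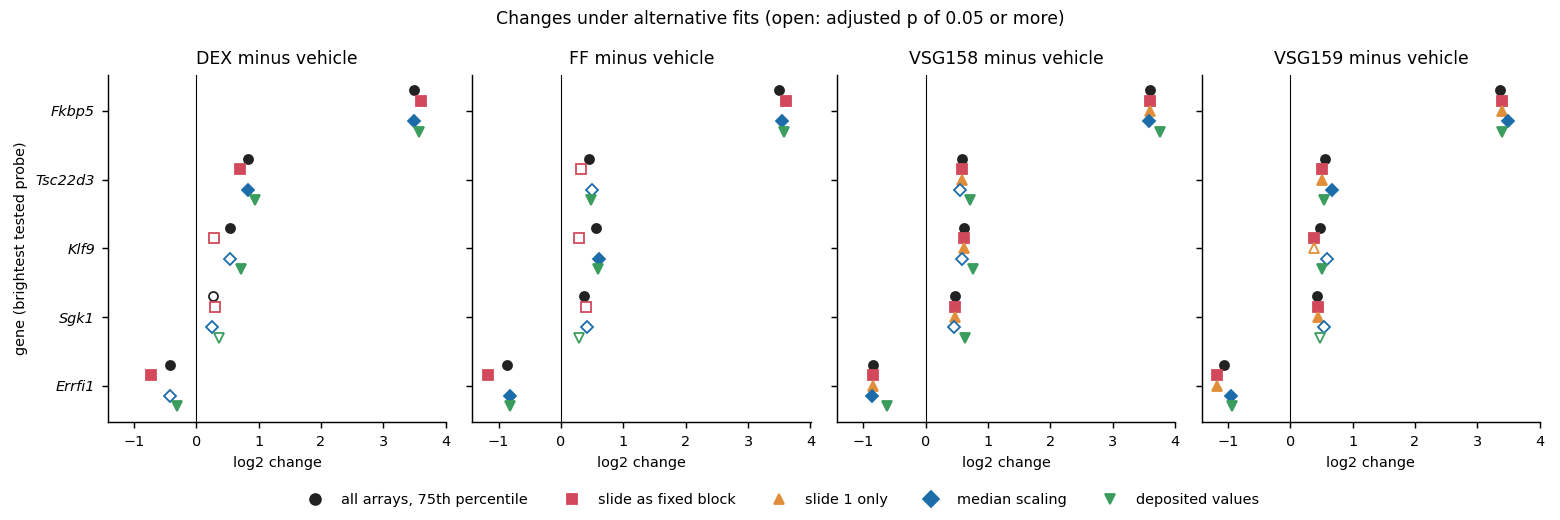
Log2 change against vehicle as reported (circles) and under 4 alternatives, slide as a fixed block, slide 1 only, median scaling and the deposited values, for the brightest probes of the 5 genes that were called with at least 3 compounds; filled symbols are called. Fkbp5 is called throughout, while Klf9 with slide as a block is at 0.28 for DEX and 0.30 for FF, open symbols.

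The second question is whether the 4 compounds, all at 100 nM, differed from each other, which gives 6 pairs. The adjusted p here is over all tested probes within each pair. FF against DEX called 0 of the 15 probes, where it called 4.27% of all tested probes, 2.36% higher and 1.91% lower. VSG158 against DEX called 0, where it called 2.39% of all, 1.47% higher and 0.923% lower, and VSG159 against DEX called 1, a lower one, where it called 4.77% of all, 1.74% higher and 3.03% lower. The pairs VSG158 against FF, VSG159 against FF and VSG158 against VSG159 called 0 of the 15 probes and 0% of all tested probes. At an unadjusted limma p under 0.05 the counts of the 15 probes were 2 for FF against DEX (22.5% of all tested probes), 2 for VSG158 against DEX (17.2%), 4 for VSG159 against DEX (21.7%), 0 for VSG158 against FF (7.32%), 0 for VSG159 against FF (5.57%) and 2 for VSG158 against VSG159 (5.77%). The arrays of the brightest probes did not overlap for 2 of the 10 genes in FF against DEX (38.2% of all probes), 2 in VSG158 against DEX (22%), 3 in VSG159 against DEX (26.5%), 0 in VSG158 against FF (15.5%), 1 in VSG159 against FF (11%) and 2 in VSG158 against VSG159 (7.98%). Adjusted over all 10 contrasts together, FF against DEX called 2 of the 15 probes and VSG158 against DEX called 1, where 9.58% and 6.88% of all tested probes were called.

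The single difference past the threshold was Errfi1, lower after VSG159 than after DEX with a log2 difference of -0.65 (95% interval -0.92 to -0.38, adjusted p = 0.0168), with no overlap between the 3 arrays of each. The Errfi1 difference was -0.45 for FF against DEX (95% interval -0.72 to -0.18, adjusted p = 0.0645) and -0.42 for VSG158 against DEX (-0.69 to -0.15, adjusted p = 0.101), and neither pair of groups overlapped. The DEX arrays were on slide 2 and 2 of the 3 VSG159 arrays on slide 1. On slide 2 alone, where the lone VSG159 array is assumed to vary like the other groups, the Errfi1 difference of VSG159 from DEX was -0.44 (adjusted p = 0.117). It was -0.44 with slide as a fixed block (adjusted p = 0.134), with slide as a random block -0.56 (adjusted p = 0.0750) and with median scaling -0.52 (adjusted p = 0.456), none of them called. The Errfi1 call was also lost with slide and array position in the fit, without the filter on dim probes (adjusted p = 0.102), with only these groups fitted (adjusted p = 0.153), and without VSG159 replicate 2, DEX replicate 1 or DEX replicate 3. Without the 3 arrays that stood apart, VSG159 minus DEX was -0.44 for Errfi1 and was not called (adjusted p = 0.0898), while FF minus DEX was -0.45 and was (adjusted p = 0.0297).

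Tsc22d3 was the other gene with its DEX arrays at the high end, on its brightest probe. FF minus DEX was -0.39 (95% interval -0.63 to -0.14, adjusted p = 0.0726), VSG158 minus DEX -0.25 (-0.50 to -0.01, adjusted p = 0.282) and VSG159 minus DEX -0.28 (-0.53 to -0.04, adjusted p = 0.170). The intervals leave out 0 and the adjusted values miss the threshold. On the second Tsc22d3 probe FF minus DEX was 0.08 (95% interval -0.18 to 0.35) and VSG158 minus DEX 0.03 (-0.23 to 0.30). VSG159 minus DEX was -0.16 (-0.42 to 0.11) there, so DEX was not the highest group on that probe.

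For Fkbp5 no pair was past the threshold, and on the brightest probe the intervals were narrow beside the change against vehicle. FF minus DEX lay between -0.29 and 0.30, VSG158 minus DEX between -0.19 and 0.40, VSG159 minus DEX between -0.43 and 0.17, and VSG158 minus VSG159 between -0.06 and 0.54. On the second Fkbp5 probe the DEX arrays lay below those of each other compound. There FF minus DEX was 0.40 (95% interval -0.12 to 0.93), VSG158 minus DEX 0.28 (-0.25 to 0.80) and VSG159 minus DEX 0.40 (-0.13 to 0.92). For Klf9 the 6 intervals ran from -0.34 at the lowest to 0.39 at the highest. For Sgk1 they ran from -0.23 to 0.48. On the responsive Mt1 probe VSG159 minus DEX was -0.50 (95% interval -0.92 to -0.08, adjusted p = 0.158), and VSG158 exceeded VSG159 by 0.51 (0.09 to 0.93, adjusted p = 0.850), without passing. These misses do not show that the compounds act alike, only that a difference outside the intervals was not seen.

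**Figure D4:**
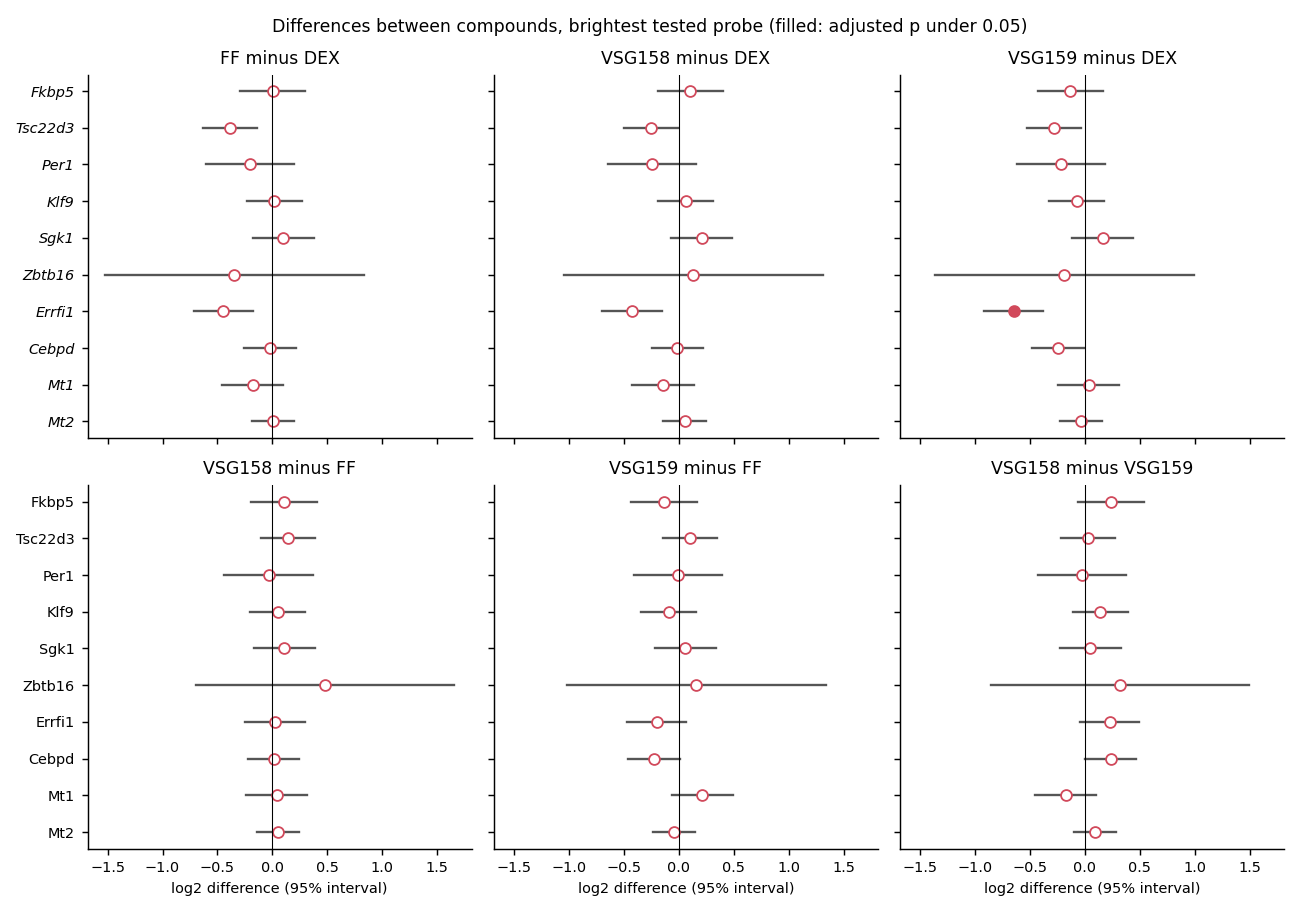
Differences between compounds at 100 nM for the brightest tested probe of each gene in the 6 pairs, as log2 differences with 95% intervals from limma, filled where called. Errfi1 in VSG159 minus DEX (-0.65) is the one difference past the threshold, and the Fkbp5 intervals all include 0.

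A wider list of genes known to respond to glucocorticoids in other tissues was read alongside, with 28 of its 34 genes tested. After DEX 8 were higher and 10 lower, after FF 8 and 14, after VSG158 9 and 13, and after VSG159 9 and 13. The median change of the list was 0.10 after DEX, -0.43 after FF, -0.39 after VSG158 and -0.41 after VSG159, where the median over all genes was 0.03, -0.05, -0.06 and -0.06. Calls over genes stood at 23.2% higher and 23.1% lower after DEX, 20.8% and 21.4% after FF, 19.7% and 24.6% after VSG158, and 19.1% and 25% after VSG159.

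The list held larger changes than Fkbp5 in 1 gene. Mertk, a receptor kinase by which macrophages take up dying cells, changed by 4.09 after DEX, 4.41 after FF, 4.11 after VSG158 and 4.19 after VSG159 (SE 0.45 each, adjusted p between 8.28e-06 and 1.95e-05). Angptl4, a secreted inhibitor of lipoprotein lipase, changed by 3.19, 3.03, 3.14 and 3.18 in the same order (SE 0.25 each). Cited2 (1.01, 0.51, 0.61 and 0.82) and Nfil3 (1.01, 0.60, 0.70 and 0.51), regulators of transcription, were called with all 4 compounds, at sizes like those of Tsc22d3 and Klf9.

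Other list genes were lower with all 4 compounds: Gadd45b, a stress-response gene, changed by -1.85, -1.92, -1.76 and -1.86, Cdkn1a, an inhibitor of the cell cycle, by -1.61 after DEX and -2.14 after VSG159, Rgs2, a regulator of G-protein signalling, by -1.40, -1.83, -2.09 and -2.13, and Ddit4, an inhibitor of mTORC1, by -1.21, -1.88, -1.74 and -2.20. Dusp1, a phosphatase that switches off MAP kinases, stood at 0.12 after DEX, which was not called, and at -0.57 after FF, -0.37 after VSG158 and -0.50 after VSG159, which were. The other genes whose call differed between compounds included Glul, which makes glutamine, at 0.21 after DEX, not called, and 0.83, 0.69 and 0.61 after FF, VSG158 and VSG159, called, and Fam107a, at 0.99, not called, and 1.67, 1.51 and 1.75, called. Gadd45a, a stress-response gene, was called after DEX alone (0.88, against 0.09, 0.40 and 0.10). Acsl1, which activates fatty acids, was higher after DEX (0.48), VSG158 (0.43) and VSG159 (0.37) and not called after FF (0.23). Nfkbia, the inhibitor of NF-kB, was lower after FF (-0.45), VSG158 (-0.39) and VSG159 (-0.58) and not called after DEX (-0.32), and Bcl6, a repressor, was lower after FF (-0.38) and VSG158 (-0.46) only. A call in one compound and not in another is no test of their difference, which follows. The difference of Dusp1 from DEX was -0.70 for FF (adjusted p = 0.0193) and -0.62 for VSG159 (adjusted p = 0.0247). In all, FF was lower than DEX for 5 of the 28 genes, VSG159 for 9 and VSG158 for 1, and higher for none. Over all genes, 1.85% were higher and 2.23% lower for FF against DEX, 1.32% and 3.51% for VSG159 against DEX, and 1.12% and 0.985% for VSG158 against DEX. With each array scaled to its median, all-probe calls fell from 1216 to 2 for FF against DEX. They fell from 1360 to 88 for VSG159 and from 681 to 54 for VSG158 against DEX. The differences of single list genes were not recomputed under the alternatives. VSG158 and VSG159 replicates 1 and 2 were on the other slide than DEX.

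**Figure D5:**
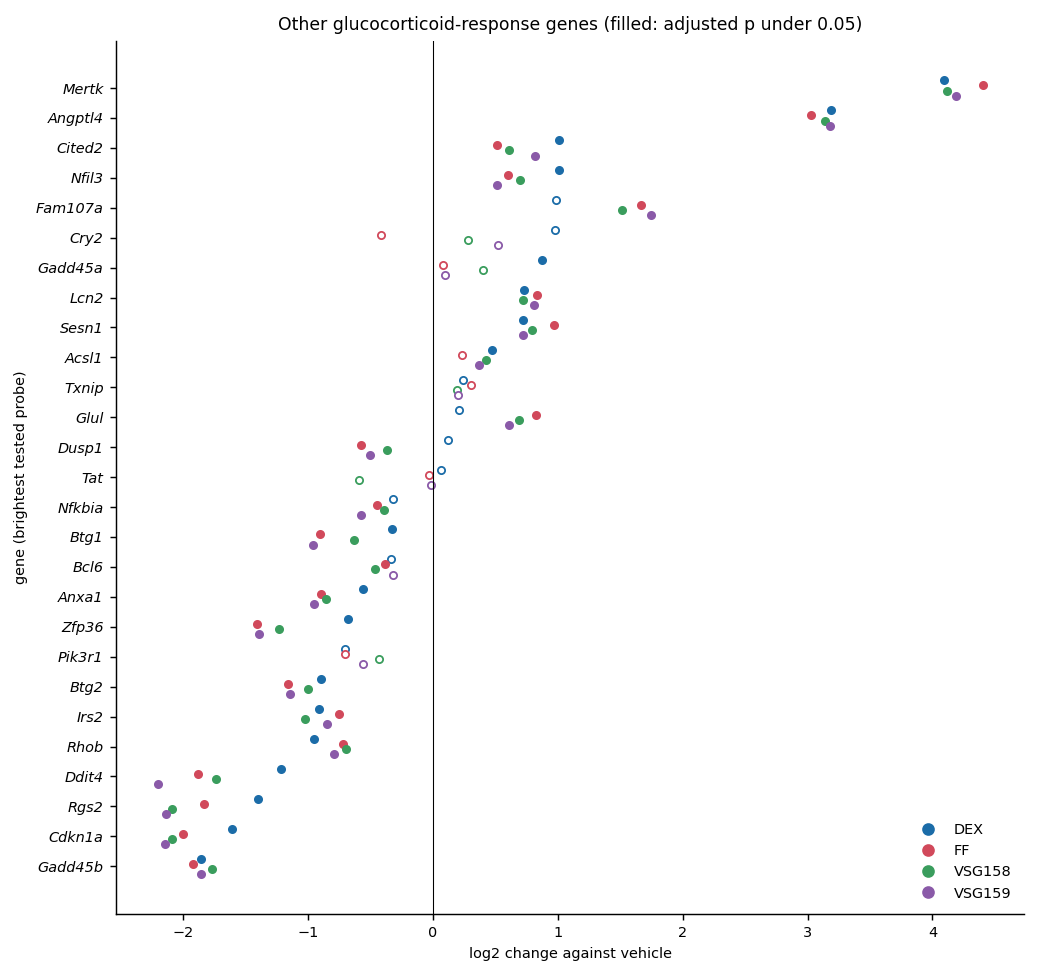
Log2 change against vehicle of tested genes of the wider glucocorticoid-response list, by compound, with 1 tested gene not shown; filled points are called. Mertk and Angptl4 stand at the top at 3.03 to 4.41, and Gadd45b, Cdkn1a, Rgs2 and Ddit4 at the bottom at -2.20 to -1.21.

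The genes whose signal followed that of the called members most closely over the 15 arrays were found by Pearson's r among 12814 genes, as a description only, since the arrays share the 5 groups and the 2 slides. Fkbp5 was closest to Fabp4, a fatty-acid binding protein (r = 0.996), then to Nop56 and Gar1, components of small nucleolar ribonucleoproteins (0.996 each). Tsc22d3 was closest to Ms4a6c (0.976), Snhg8 (0.974) and Efl1 (0.969), and Klf9 to Cntrob (0.980), Smarcad1 (0.974) and Mbnl1 (0.973). Sgk1 had no such close neighbour, Rrn3 being the nearest at 0.921. Errfi1 was closest to Plbd1 (0.986), Rgcc (0.986) and Maml1 (0.986).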

How the data were processed

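RNA of 15 samples was measured on one-colour Agilent arrays of 62976 spots. The authors' deposited scanner output, made with Feature Extraction 10.7.3.1 per the file headers, gives spot intensity on a linear scale, background-corrected by the software. A deposited value table holds log2 values, whose processing the labels do not state, and limma appears, with no version, in the submitters' processing notes. Its columns had medians of 5.80 to 5.83 and correlated with the scanner values at 0.993 to 0.997, so its scale is log2, and its centring is not known.

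From the intensities, log2 of the processed signal was taken and each array's 75th percentile subtracted, control spots and outlier spots were left out, and spots of 1 probe were averaged, leaving 56605 probes. After outlier spots were left out, 2240 values of single tested probes on single arrays were missing. A probe was tested where at least 2 of 3 arrays of 1 group were well above background (28497 probes, 19498 genes). Limma 3.58.1 (R 4.3.3) was fitted over all 15 arrays with group as the factor (10 residual degrees of freedom, lmFit and eBayes), with Benjamini-Hochberg adjustment over all tested probes in each contrast and a threshold of 0.05. The fit was tested on simulated data. Genes with several probes are named through the probe of highest mean signal. Signals of the 15 arrays at the 75th percentile ran between 695 and 1223, and replicates correlated at 0.965 to 0.991.

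Members and gene lists were chosen with earlier results of these data known, so a pattern seen before is no independent evidence. The text names all 10 members, the genes of both lists with the 4 largest and 4 smallest called changes with DEX and those whose call differs between compounds, and the 3 nearest genes by correlation. The values of 1 list gene named by this rule are not reported here, though it is part of the list's counts and medians. The comparison between probes of 1 gene was added after their values were seen. Probe positions are those of the files (mm9), and promoter windows are RefSeq's (GRCm38.p6). No annotation of mm9 was used here, so the exon or untranslated region of a probe is not given. Alternatives covered scaling, background correction, the deposited table, the filter, probes per gene, slide and position, the replicate number as a block, the adjustment, and each array left out. Leaving out the 3 arrays with the most nonuniform spots was added after seeing the data.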

Additional observations from a re-analysis of the deposited data

How the results depend on the processing

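The call, or its absence, was kept in most alternatives. A probe called in neither fit counts as kept, whatever the sign of its change. Over single probes, with differences between probes of 1 gene not counted, 2207 values stayed on their side of the threshold with 1 array left out, 31 lost and 8 gained a call, and in the other alternatives 2327 stayed, 73 lost a call, 26 gained one and 2 turned round. The causes were not tested. With each array scaled to its median the called probes of the set, of 15, were 4 with DEX, 5 with FF, 4 with VSG158 and 0 for VSG159 against DEX, and 4 by the F test. Calls over all 28497 tested probes fell too, to 8538 with DEX, 7846 with FF, 8380 with VSG158 and 88 for VSG159 against DEX. In the same order they were 13417, 12268, 12989 and 1360 as reported. With 1 probe per gene, where 10 probes remain, they were 4, 5 and 5 with DEX, FF and VSG158. Slide as a fixed block left 3 with FF, a random block 5 with FF, and both left 0 for VSG159 against DEX. Slide and array position together left 0 with DEX, 2 with FF, 2 with VSG159 and 0 for VSG159 against DEX. VSG159 against DEX also had 0 calls without the filter, with only those groups fitted, on slide 2 alone, and without the 3 arrays of most nonuniform spots. FF against DEX, with 0 calls, had 1 after normexp with quantile normalization, in the deposited table, with slide as a fixed or random block and without those 3 arrays (9.07% of all probes), and 2 with joint adjustment or with trend and robust fitting, and VSG158 against DEX had 1 with joint adjustment. Leaving out 1 array gave 6 to 8 calls with DEX, 6 to 9 with FF, 7 to 9 with VSG158, 6 to 8 with VSG159, 0 to 1 for FF against DEX (1 without VSG159 replicate 3 or DEX replicate 2), 0 to 2 for VSG159 against DEX (2 without VSG159 replicate 3) and 6 to 9 by the F test. Shares over all probes are not given here for the slide and position fits or for single arrays left out. Those counts are therefore no result about these genes alone.

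A second Klf9 probe turned to -0.0956 with FF under a fixed slide block, not called. Mt2 turned to 0.216 with FF after quantile normalization, called. The Fkbp5 difference between probes turned to -0.986 with DEX with slide and position. Median scaling moved the median of all probes by 0.12 in VSG159 against vehicle, where 52.4% of calls were higher instead of 41.0%. The median moved by 0.12 in VSG159 against DEX too, where 60.2% of 88 calls were higher instead of 36.5% of 1360. In VSG158 against DEX 72.2% of 54 calls were higher instead of 61.4% of 681. FF against DEX was left with 2 calls, 0% of them higher, instead of 1216. Most calls of these pairs were thus lost, and the shares rest on unlike totals. After quantile normalization 68.4% of 884 calls in FF against DEX were higher, instead of 55.3% of 1216. All-probe calls with DEX numbered 8538 with median scaling, against 13417 as reported. Replicate numbers do not pair the arrays, since deviations from the group mean of same-numbered arrays in different groups correlated between -0.530 and 0.279. With the replicate block the counts were 7, 7, 7 and 7 with DEX, FF, VSG158 and VSG159, where 12414, 11446, 12108 and 11983 of 28497 probes were called, 1 for VSG159 against DEX, 0 for the other pairs and 6 by the F test. With it the second Tsc22d3 probe lost its FF call (adjusted p = 0.0737), and the second Klf9 probe those of FF (0.0519) and VSG158 (0.0547). Signal over background limits Zbtb16.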

Other observations

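Relatives and partners of the 10 genes were read as a separate list, with 22 of its 24 genes tested. After DEX 3 were higher and 7 lower, and after FF, VSG158 and VSG159 2 were higher and 9 lower each, where over all genes 23.2% were higher and 23.1% lower after DEX, 20.8% and 21.4% after FF, 19.7% and 24.6% after VSG158, and 19.1% and 25% after VSG159. The list's median was 0.04, -0.23, -0.25 and -0.26, against 0.03, -0.05, -0.06 and -0.06 over all genes. Fkbp4, a co-chaperone of the receptor related to Fkbp5, was higher with all 4 compounds, by 1.39 after DEX, 1.48 after FF, 1.45 after VSG158 and 1.36 after VSG159 (SE 0.11 each, limma adjusted p between 5.00e-07 and 1.25e-06). Cebpa, the myeloid relative of Cebpd, was higher by 0.60, 1.11, 0.94 and 0.86 in the same order (SE 0.17 each). Cebpb, the inflammatory relative, stood at -0.11 after DEX, which was not called, and was lower with the rest, at -0.67 after FF, -0.55 after VSG158 and -0.87 after VSG159, and VSG159 minus DEX was -0.76 (adjusted p = 0.0401). This difference was not recomputed under the alternatives, and VSG159 replicates 1 and 2 were on the other slide than DEX.

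Klf4 and Klf6, Kruppel-like factors as Klf9 is, were lower with all 4 compounds, at -1.43, -1.30, -1.29 and -1.27 for Klf4 and at -0.93, -1.23, -1.21 and -1.22 for Klf6, again as DEX, FF, VSG158 and VSG159. Zbtb7a, a zinc-finger factor of the family of Zbtb16, was lower with all 4, from -0.98 after DEX and FF to -1.19 after VSG159 (SE 0.15 each). Mt3, a relative of Mt1 and Mt2, was lower after DEX (-0.79) and FF (-0.56) and stood at -0.46 after VSG158 and -0.43 after VSG159, not called. Zbtb20, also of the Zbtb16 family, was higher after DEX (0.65) and stood at 0.44, 0.15 and 0.39 with the other compounds, not called. Mtf1, the metal-responsive factor, stood at -0.21 after DEX, not called, and was lower after FF (-0.28), VSG158 (-0.30) and VSG159 (-0.31). Fkbp8, a relative of Fkbp5, was lower after VSG158 (-0.61) and VSG159 (-0.55) and stood at -0.26 after DEX and -0.33 after FF, not called.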
